A study of Homo sapiens with 6 samples.

Results

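The genes of the eukaryotic translation initiation factors, named EIF, were described with and without leptin in OVCAR8, an established cell line from a human ovarian carcinoma. Members were the protein-coding genes whose symbol starts with EIF and a digit from 1 to 6, leaving out the eIF2 kinases (EIF2AK), the eIF4E-binding proteins (EIF4EBP) and the eIF4E transporter (EIF4ENIF). By this rule 48 genes were members, among 19897 protein-coding genes and 62700 gene IDs in all. RNA was sequenced from 3 control libraries, from cells given PBS, and from 3 leptin libraries, from cells given leptin, an adipocyte hormone, at 100 ng/ml for 24 h. All cells had first been kept without serum overnight, and no genetic change separated the groups. The labels do not say that the replicates were separate cultures, so each p-value reflects only how these libraries varied, and that variation may be technical.

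Initiation factors bring the small ribosomal subunit, the initiator tRNA and the mRNA together and release the ribosome to elongate at the start codon. eIF2 carries the initiator tRNA and is recharged by eIF2B, eIF3 is the large scaffold on the small subunit, and the eIF4 group binds the mRNA cap and unwinds the leader. eIF1 and eIF1A keep start codon selection accurate, eIF5 and eIF5B complete subunit joining, and eIF5A mainly helps elongation. The cell controls the system mostly at the protein level, by phosphorylation of eIF2 alpha and of the eIF4E-binding proteins, which a count of mRNA does not show.

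Total counts lay between 15609425 and 18577775 per library. Levels are given as CPM, counts scaled to the size of the library. Of the epithelial and ovarian markers, KRT8, KRT18 and PAX8 were high (means of 2138, 409.6 and 364 CPM in controls), MUC16, MSLN and CDH1 were each under 1 CPM in every library, and none of the 7 tested of 9 rose or fell. Immune markers were at 0 in all libraries for 3 of 5 genes and summed to at most 0.231 CPM in any library; none of them and none of the 3 endothelial markers could be tested. Fibroblast markers summed to between 460 and 656 CPM in controls and between 357 and 520 CPM with leptin, most of it COL1A1, and 0 of 5 passed the test. In bulk libraries fewer cells of a type and less RNA per cell cannot be told apart, and the part of these markers in the EIF values was not tested. One library stood apart: leptin replicate 1 scored -2.15 on principal component 1, which held 49.6% of the variance, and so lay between the controls (-31.0 to -23.6) and leptin replicates 2 and 3 (46.3 and 39.6).

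Several members have copies or neighbours so alike or so close that their counts need care, and their coding starts are shown for that reason. Reads that fit several places, or exons of several genes, were not counted. EIF3C, a core eIF3 subunit, and its copy EIF3CL on the opposite strand of the same chromosome shared 100% of 2739 aligned coding bases, and 94.8% of the 150-base windows of EIF3C were also found in EIF3CL. EIF5A and its intronless copy EIF5AL1 were 98.9% identical with 10.5% of windows shared, and EIF2S3, the gamma subunit of eIF2, and EIF2S3B were 98.2% identical with 5.76% shared. The first 60 coding bases follow, from GENCODE 29 transcripts on GRCh38, with capitals at the bases that differ within a pair (0, 1 and 3 bases). They lie at chr16:28711687-28711746 on the plus strand for EIF3C, chr16:28403559-28403618 on the minus strand for EIF3CL, chr17:7309636-7309695 (plus) for EIF5A, chr10:79512650-79512709 (plus) for EIF5AL1, chrX:24054969-24055028 (plus) for EIF2S3 and chr12:10505903-10505962 (plus) for EIF2S3B.
EIF3C: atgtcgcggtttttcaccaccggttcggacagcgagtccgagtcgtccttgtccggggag
EIF3CL: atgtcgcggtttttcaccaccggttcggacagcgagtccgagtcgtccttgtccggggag
EIF5A: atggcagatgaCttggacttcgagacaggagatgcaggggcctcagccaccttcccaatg
EIF5AL1: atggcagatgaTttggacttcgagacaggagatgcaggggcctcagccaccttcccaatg
EIF2S3: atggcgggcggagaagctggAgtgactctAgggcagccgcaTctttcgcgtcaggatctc
EIF2S3B: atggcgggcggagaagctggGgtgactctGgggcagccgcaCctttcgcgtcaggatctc
The paralogs EIF1 and EIF1B (82.0% identical), EIF4A1 and EIF4A2 (76.9%) and EIF5A and EIF5A2 (72.8%) shared 0 windows of 150 bases. Overlap with other genes was the second limit. For EIF4A1, the eIF4A helicase gene, 86.8% of coding bases also lie in exons of other genes, above all the readthrough gene SENP3-EIF4A1. The share was 84.4% for EIF4E3, 37.2% for EIF5A (neighbour GPS2), 36.4% for EIF3L and 33.3% for EIF6. In 34 of the 48 members it was 0.

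No EIF gene passed the test between leptin and control, while 9.81% of the 15685 genes tested did (5.71% higher and 4.09% lower). Of the 48 members 46 could be tested, and edgeR's quasi-likelihood test called 0 higher and 0 lower at an adjusted p under 0.05. EIF4E1B and EIF1AY had 0 counts in all 6 libraries, which allows up to 0.158 to 0.200 CPM per library at 3 counts, for counting error only. At an unadjusted p under 0.05 there were 11 members (23.9%), 3 with a positive and 8 with a negative log2 fold change, where 27.6% of all tested genes were under that value. The leptin libraries lay wholly on one side of the controls for 17 members (37.0%), 4 above and 13 below, against 32.2% of all tested genes (16.0% above and 16.2% below). Negative values were the more common: 29 of 46, with a median log2 fold change of -0.10, where the median over all tested genes was 0.01 and 50.8% were positive. Members lean to low GC content, where all genes had negative medians too, as given below.

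The intervals bound what these libraries could hold for each gene. For 43 of 46 members the 95% interval of the fold change lay within 2-fold in either direction. The exceptions were EIF3C, EIF3CL and EIF4A1, all among the genes with copies or overlaps above. The median standard error was 0.124 on the log2 scale. Members are abundant: 26 of them stood among the 2283 tested genes with a control mean of at least 100 CPM, and of those 2283 genes 12.3% passed. DESeq2 called 4 members lower (EIF4A2, EIF5, EIF4G1 and EIF2B1; 14.3% of all tested genes passed) and limma-voom called 0 (8.39% passed).

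**Figure D1:**
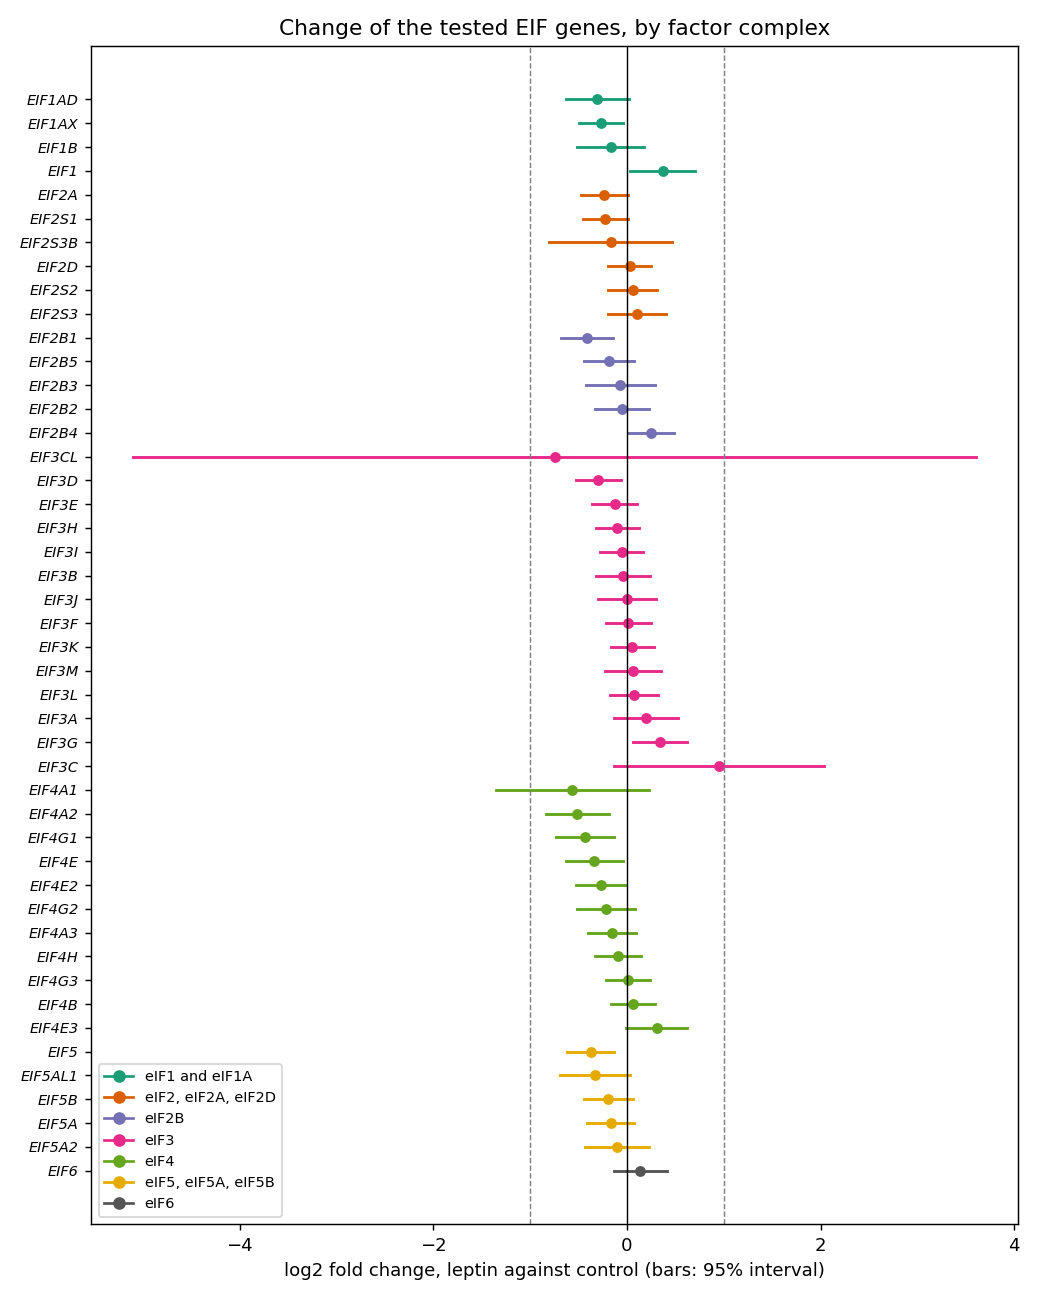
Log2 fold change of the 46 tested EIF genes, leptin against control, with 95% intervals as bars and colours for the factor complexes; dashed lines mark a 2-fold change. Most points lie within 0.5 of zero on the log2 scale (42 of 46), and EIF3C and EIF3CL have the widest bars.

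Among the factors of start codon selection, EIF1 had higher and EIF1AX lower values with leptin in every library, and neither passed the test. EIF1, which holds the scanning ribosome open until a start codon is found, stood at 793, 781 and 728 CPM in controls and 832, 897 and 1243 CPM with leptin. All 3 leptin libraries were above all controls, leptin replicate 3 by far the most. The log2 fold change was 0.37 ± 0.15 (SE), with an edgeR adjusted p of 0.148, and 0.17 without leptin replicate 3. EIF1AX, the eIF1A gene on the X chromosome, gave 155, 135 and 152 CPM in controls against 122, 123 and 121 CPM. The leptin values were closer to each other than the controls and lay below them (log2 fold change -0.27 ± 0.10, adjusted p in edgeR = 0.119). EIF1B, the close relative of EIF1, had 21.0, 19.9 and 21.2 CPM against 17.7, 14.97 and 22.6 CPM, which overlap (log2 fold change -0.17 ± 0.16, adjusted p in edgeR = 0.528). EIF1AD, which encodes a protein with an eIF1A-like domain, had a log2 fold change of -0.31 ± 0.15 (adjusted p in edgeR = 0.208), with leptin replicate 1 among the controls.

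The eIF2 group had values of both signs, and none of its 6 members passed the test. EIF2S1, the alpha subunit that stress kinases phosphorylate, stood at 113, 105 and 114 CPM in controls and 87.4, 102 and 95.1 CPM with leptin, without overlap (log2 fold change -0.22 ± 0.11, adjusted p in edgeR = 0.194). EIF2S2, the beta subunit and the member of this group with the highest level per length, stood at 179, 159 and 164 CPM against 154, 179 and 191 CPM, with the groups overlapping (log2 fold change 0.06 ± 0.12, adjusted p in edgeR = 0.772). EIF2S3, the gamma subunit that binds GTP and the tRNA, had a log2 fold change of 0.11 ± 0.14 and its copy EIF2S3B one of -0.17 ± 0.29. EIF2A, a factor that can bring initiator tRNA without eIF2, stood at 43.7, 39.4 and 43.7 CPM in controls and 38.1, 36.1 and 33.8 CPM with leptin. Its leptin values were all below the controls, the lowest control and the highest leptin library being close (log2 fold change -0.23 ± 0.11, adjusted p in edgeR = 0.195). EIF2D, another such factor, had a log2 fold change of 0.03 ± 0.10. The 6 members split into 3 positive and 3 negative values, with a median of -0.07, or 0.04 once the GC trend of each library was removed.

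In eIF2B, the exchange factor that recharges eIF2 with GTP, 2 of 5 subunits lay outside the control range in every leptin library, 1 above and 1 below, where 32.2% of all tested genes did so, and none passed the test. EIF2B1, the alpha subunit (chr12:123620406-123633766 on the minus strand in the hg38 coordinates of the count tables), stood at 52.1, 48.2 and 51.4 CPM in controls and 42.5, 32.1 and 39.1 CPM with leptin. Every leptin library was below every control, leptin replicate 2 the most (log2 fold change -0.42 ± 0.12, adjusted p in edgeR = 0.0560). EIF2B4, the delta subunit, stood at 47.3, 45.5 and 52.3 CPM against 53.2, 60.01 and 58.9 CPM, with every leptin library above every control and leptin replicate 1 only just (log2 fold change 0.25 ± 0.11, adjusted p in edgeR = 0.170). EIF2B5, which carries the catalytic domain, had a log2 fold change of -0.19 ± 0.12, and EIF2B2 and EIF2B3 had -0.05 ± 0.13 and -0.07 ± 0.16, all with overlap. The group's median was -0.07.

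Most of the eIF3 scaffold stayed close to its control level. Excluding EIF3C and EIF3CL, EIF3D and EIF3G, the other 10 subunits had log2 fold changes between -0.13 (EIF3E) and 0.20 (EIF3A), and each of them had libraries of the groups overlapping. EIF3K, the subunit with the highest level per length, was typical with 196, 188 and 181 CPM in controls and 198, 190 and 199 CPM with leptin (log2 fold change 0.06 ± 0.10; the 95% interval of the fold was 0.892 to 1.21). EIF3A, the largest subunit, stood at 271, 276 and 260 CPM against 239, 377 and 309 CPM, leptin replicate 1 being below all controls and the other leptin libraries above. EIF3D, a subunit that can itself bind the cap of some mRNAs, stood at 163, 156 and 166 CPM against 142, 131 and 123 CPM. No leptin value reached the controls (log2 fold change -0.29 ± 0.10, adjusted p in edgeR = 0.0932). EIF3G, an RNA-binding subunit, stood at 163, 177 and 174 CPM against 181, 225 and 244 CPM, the leptin libraries all higher and replicate 1 nearest the controls (log2 fold change 0.34 ± 0.13, adjusted p in edgeR = 0.107). Over the 14 eIF3 members 8 values were positive and 6 negative, with a median of 0.01, or -0.04 with library totals alone as the scaling.

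EIF3C and EIF3CL had the most uneven values of any members, and replicate 3 of both groups set them. EIF3C stood at 10.3, 14.3 and 12.3 CPM in controls and 15.5, 12.3 and 43.5 CPM with leptin. EIF3CL, with the identical sequence, stood at 2.21, 1.74 and 40.9 CPM against 1.67, 2.87 and 22.03 CPM. Leptin replicate 3 alone was high for EIF3C, and control replicate 3 and leptin replicate 3 were high for EIF3CL. Added together, a sum chosen after seeing the data, they gave 12.5, 16.1 and 53.2 CPM in controls and 17.1, 15.2 and 65.6 CPM with leptin, so the groups overlapped. The log2 fold changes of 0.95 ± 0.46 (adjusted p in edgeR = 0.237) and -0.74 ± 1.65 (adjusted p in edgeR = 0.818) were the largest of all members and had the largest standard errors. With single libraries left out, EIF3C ranged from 0.17 (without leptin replicate 3) to 1.26 (without leptin replicate 2), and EIF3CL from -2.73 (without leptin replicate 3) to 2.16 (without control replicate 3), turning its sign. Every other eIF3 subunit but EIF3J stood above 100 CPM in the controls, and the levels of EIF3C and EIF3CL are of the uniquely placed reads only.

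**Figure D2:**
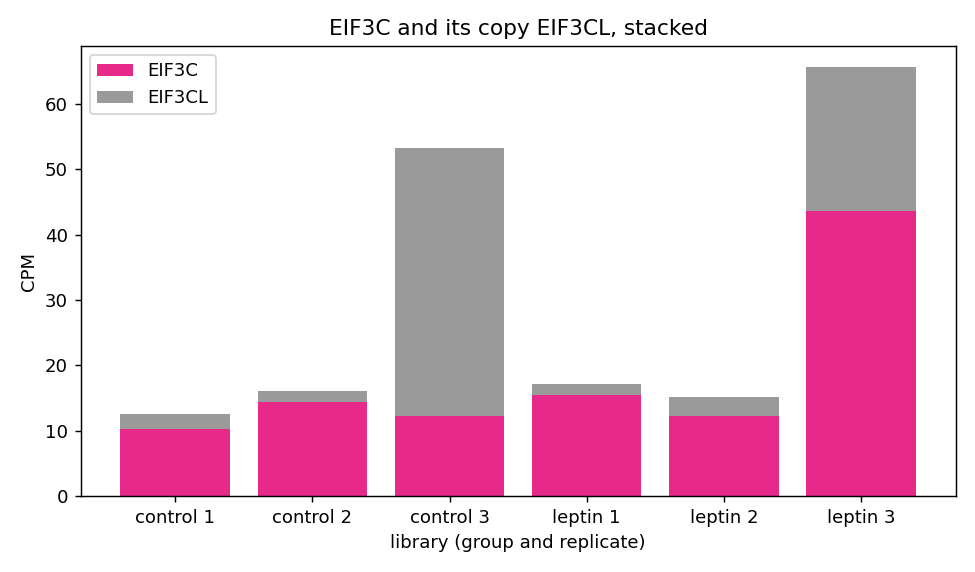
Stacked CPM of EIF3C (magenta) and its copy EIF3CL (grey) in each of the 6 libraries. The sum is between 12.5 and 17.1 CPM in 4 libraries and reaches 53.2 and 65.6 CPM in control replicate 3 and leptin replicate 3, with different shares of the copies.

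By count, the eIF4 group held the most members with lower values under leptin. Log2 fold changes were negative for 8 of 11 tested members, and their median was -0.21 (-0.12 with the GC trend removed), while 6 had every leptin library below every control: EIF4A1, EIF4A2, EIF4E, EIF4E2, EIF4G1 and EIF4H. Of all tested genes 16.2% lay wholly below the controls. None of the 6 passed edgeR's test. Summed over the group, the level was 2986, 2921 and 3053 CPM in controls and 2551, 2780 and 2437 CPM with leptin, without overlap. By share, smaller groups were as negative or more so. Values were negative for 5 of 5 eIF5, eIF5A and eIF5B genes (median -0.19) and 3 of 4 start codon genes (median -0.22). In eIF2B 4 of 5 were negative (median -0.07).

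EIF4A2, an eIF4A RNA helicase (chr3:186783205-186789897, plus strand), stood at 126, 129 and 135 CPM in controls and 108, 69.4 and 95.2 CPM with leptin. The controls were tightly grouped and all leptin libraries were lower, replicate 2 the lowest. The fold was 0.700 with a 95% interval of 0.559 to 0.878 (log2 fold change -0.51 ± 0.15), and the edgeR adjusted p of 0.0515 was the smallest of any member. EIF4G1, the scaffold that joins the cap-binding protein to the helicase (chr3:184314495-184335358, plus strand), stood at 634, 644 and 694 CPM against 539, 524 and 397 CPM. Leptin replicate 3 was the lowest and no leptin value came near the controls (log2 fold change -0.43 ± 0.14, adjusted p in edgeR = 0.0666). Its adjusted p was 0.0373 with the GC trend removed, at a log2 fold change of -0.57.

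EIF4E, the cap-binding protein, stood at 53.0, 37.6 and 50.1 CPM in controls and at 37.1, 37.0 and 37.5 CPM with leptin. The leptin values were almost equal, and control replicate 2 stood just above the highest of them (log2 fold change -0.34 ± 0.13, adjusted p in edgeR = 0.132). EIF4E2, a cap-binding relative that represses translation, stood at 90.6, 89.8 and 92.5 CPM against 88.0, 69.3 and 69.7 CPM. Leptin replicate 1 was just below the controls and replicates 2 and 3 well below them (log2 fold change -0.26 ± 0.12, adjusted p in edgeR = 0.173). EIF4E3, another cap-binding relative, had higher values, with 15.03, 12.5 and 12.1 CPM against 15.3, 17.1 and 16.7 CPM (log2 fold change 0.31 ± 0.14, adjusted p in edgeR = 0.191), although most of its coding bases overlap another gene.

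The other scaffolds and helicases were closer to the controls. EIF4G2, a scaffold without the site for the cap-binding protein, stood at 957, 897 and 972 CPM in controls and 723, 969 and 743 CPM with leptin. Leptin replicate 2 lay within the controls and the others below them (log2 fold change -0.21 ± 0.14, adjusted p in edgeR = 0.340). EIF4G3, a relative of EIF4G1, stood at 100, 101 and 91.7 CPM against 94.8, 105 and 95.1 CPM, and its log2 fold change was 0.01 ± 0.10, or -0.04 with library totals alone. EIF4A3, the eIF4A relative in the exon junction complex, stood at 125, 120 and 116 CPM against 103, 99.1 and 123 CPM (log2 fold change -0.16 ± 0.11, adjusted p in edgeR = 0.400). EIF4A1, whose coding exons lie mostly in the readthrough gene too, had only 29, 31 and 21 counts in controls and 17, 16 and 19 with leptin, or 1.53, 1.93 and 1.26 CPM against 0.980, 1.07 and 1.13 CPM. The leptin values were all lower (log2 fold change -0.57 ± 0.36, adjusted p in edgeR = 0.339), at counts that do not stand for the whole gene. The helicase cofactors EIF4B and EIF4H had log2 fold changes of 0.06 ± 0.10 and -0.09 ± 0.11.

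**Figure D3:**
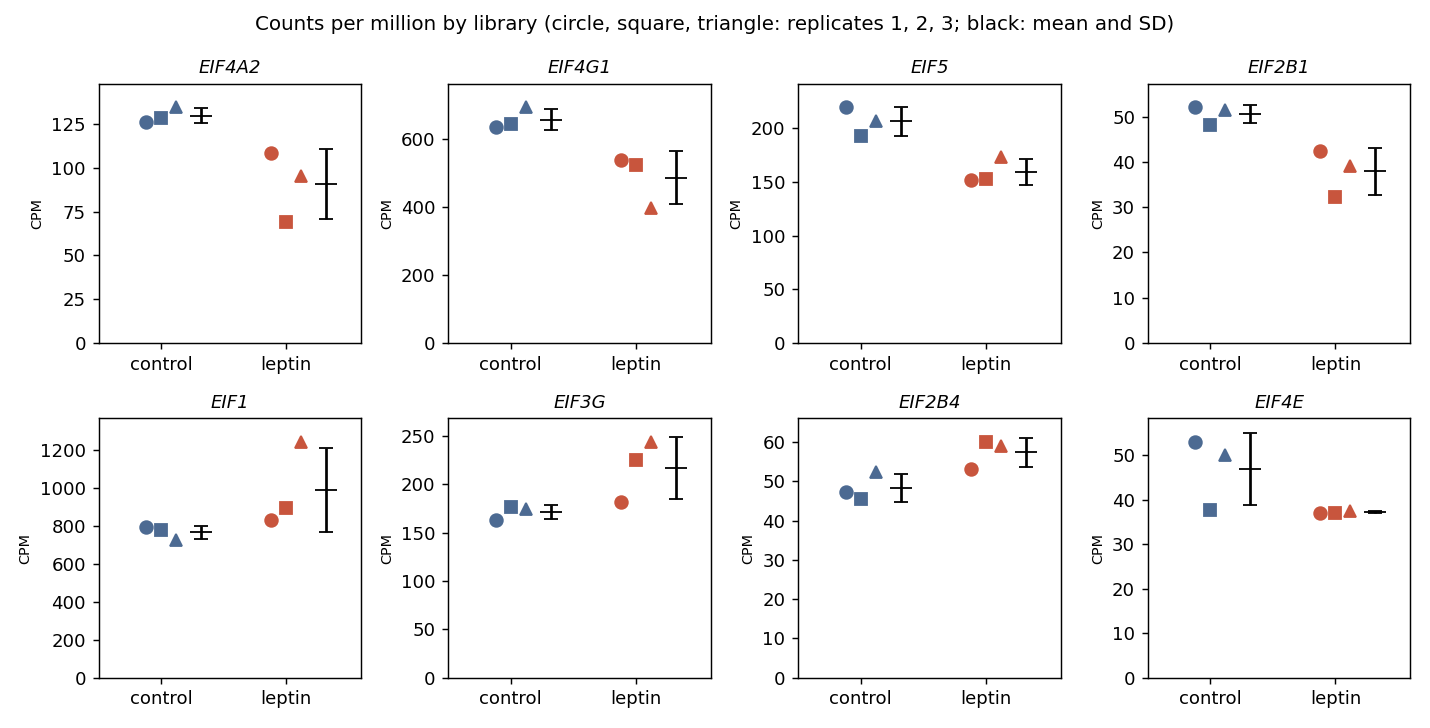
CPM of 8 EIF genes in each library, controls in blue and leptin in red, with replicates 1, 2 and 3 as circle, square and triangle and the group mean and SD in black; each axis starts at 0. EIF4A2, EIF4G1, EIF5, EIF2B1 and EIF4E lie lower in all leptin libraries and EIF1, EIF3G and EIF2B4 higher, and none of the 8 passed edgeR's test.

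Of the late factors, all 5 of the eIF5, eIF5A and eIF5B genes had negative values. EIF5A2 turned positive with the GC trend removed, and reached 0.04 with single libraries left out. EIF5, which makes eIF2 hydrolyse its GTP at the start codon (chr14:103333544-103345025, plus strand), stood at 220, 193 and 207 CPM in controls and 152, 153 and 173 CPM with leptin. The highest leptin library was below the lowest control (log2 fold change -0.37 ± 0.11, adjusted p in edgeR = 0.0536). EIF5A, the only protein known to carry hypusine together with EIF5A2, stood at 488, 471 and 514 CPM against 431, 466 and 412 CPM, without overlap but close (log2 fold change -0.17 ± 0.11, adjusted p in edgeR = 0.349). EIF5A2 stood at 35.2, 31.2 and 34.7 CPM against 24.7, 32.3 and 37.4 CPM, leptin replicate 1 below and replicate 3 above the controls (log2 fold change -0.10 ± 0.15). EIF5B, the GTPase of subunit joining, had a log2 fold change of -0.19 ± 0.12, and EIF5AL1 one of -0.33 ± 0.16, both with overlap. Summed CPM of the 5 genes was 884, 829 and 906 in controls and 720, 790 and 741 with leptin. EIF6, which keeps the large subunit from joining too early, stood at 190, 184 and 204 CPM against 178, 221 and 236 CPM, with leptin replicate 1 below the controls and the others above (log2 fold change 0.14 ± 0.12, adjusted p in edgeR = 0.520; -0.02 with the GC trend removed).

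The 4 members with the smallest adjusted p just missed the threshold, and which of them passed moved with the settings. With library totals alone, and with no filter on low counts, EIF4A2, EIF5, EIF2B1 and EIF4G1 all passed as lower (9.59% and 7.42% of all tested genes passed). With a minimum mean of 1 CPM only EIF5 passed (adjusted p in edgeR = 0.0462, with 10.7% of all genes passing). GC content, the share of G and C bases in a transcript, moved with the fold changes of all genes (Spearman's rho 0.39 across genes, which are not independent replicates). Of 5 equal groups of genes by GC content, in the lowest 23 genes rose and 223 fell, and in the highest 536 rose and 18 fell. The EIF members lean to the low side, with 14, 11, 12, 8 and 1 tested members from the lowest to the highest group. In the same order, median log2 fold changes over all genes were -0.13, -0.10, -0.03, 0.08 and 0.30. Those of the EIF members were -0.16, -0.16, -0.02, -0.13 and 0.34. With the GC trend removed 1 member passed, EIF4G1 (5.53% of all tested genes passed), while the log2 fold changes were -0.38 for EIF4A2, -0.25 for EIF5, -0.33 for EIF2B1 and 0.11 for EIF3G (adjusted p in edgeR = 0.162, 0.181, 0.129 and 0.592).

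The number of EIF genes that passed depended on leptin replicate 1. Without it 12 of 46 members (26.1%) passed edgeR's test, against 29.6% of all tested genes, so the share stayed near the background. Lower were EIF4A2, EIF4G1, EIF2B1, EIF1AD, EIF4E2, EIF3D, EIF5 and EIF1AX (edgeR adjusted p between 0.000556 and 0.0388). Higher were EIF3G, EIF1, EIF3A and EIF2B4 (0.00178 to 0.0485). Without control replicate 1, 2 or 3, or leptin replicate 2 or 3, 0 members passed, where 0.711%, 2.25%, 1.05%, 4.84% and 1.66% of all tested genes did. Removing the GC trend as well gave 7 higher and 7 lower without leptin replicate 1 (30.4% against 24.9% of all genes), and 1 lower, EIF4G1, without leptin replicate 2 (2.62% of all genes).

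The libraries differed in how their EIF genes lay as a group. The median deviation of the 46 tested members from the control mean, on the log2 scale, was 0.02, -0.06 and 0.04 in the controls and -0.19, -0.04 and -0.07 with leptin. Leptin replicate 1 was the lowest, with 35 of 46 members below the control mean, compared with 24 and 27 in leptin replicates 2 and 3 and with 13 to 36 in the controls. Deviations of more than 0.3 in either direction numbered 1, 2 and 2 in the controls and 12, 18 and 15 with leptin. Scatter was also wider with leptin over all tested genes (median SD of log2 CPM 0.238, against 0.122 in controls). Each control is part of the control mean, which keeps its own deviation small, and the share of all genes past 0.3 was not counted. In 8 members leptin replicate 1 deviated in the opposite direction from both other leptin libraries. The summed CPM of all members was 8017, 7749 and 8043 in controls and 7170, 7964 and 7852 with leptin, with overlap. The eIF4 group was low in all leptin libraries, with median deviations of -0.23, -0.28 and -0.31. Medians were also negative in all leptin libraries for the eIF5, eIF5A and eIF5B genes (-0.41, -0.07 and -0.25). The same held for the start codon group (-0.11, -0.36 and -0.08). In control replicate 2 the medians of these latter groups were -0.10 and -0.07.

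**Figure D4:**
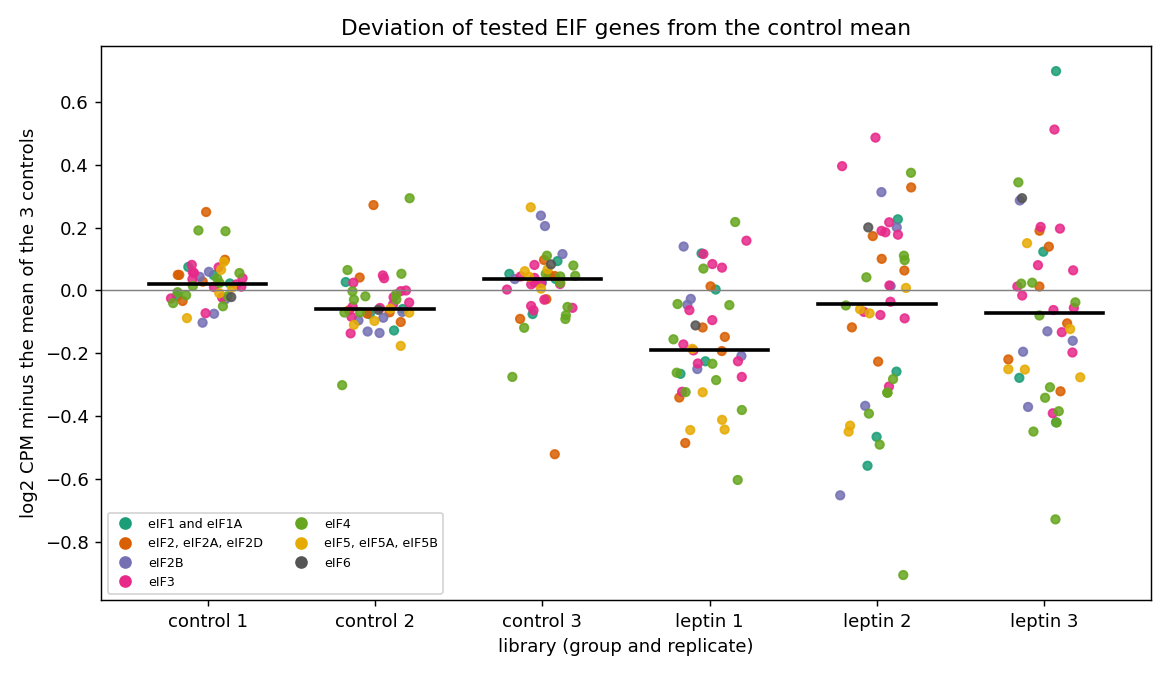
Deviation of log2 CPM from the mean of the 3 controls for 44 tested EIF genes (EIF3C and EIF3CL are not drawn) in each library, coloured by complex; black lines are the medians over all 46. Leptin replicate 1 has the lowest median (-0.19), and leptin replicates 2 and 3 have the widest scatter.

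Levels per kilobase of exon put EIF1 first, at 212 ± 9.57 CPM per kilobase in controls (mean ± SD, n = 3), followed by EIF5A at 183 ± 8.04. EIF6 (118 ± 6.14) and EIF4G2 (111 ± 4.71) came next and did not differ beyond their spread, then EIF4H (100.0 ± 2.73) and EIF4G1 (75.1 ± 3.66). EIF3K (67.2 ± 2.63) and EIF2S2 (65.5 ± 4.002) also overlapped. In eIF2B, EIF2B1 was first at 13.9 ± 0.573 CPM per kilobase. At the low end were EIF4E3 at 1.22, EIF2S3B at 1.15 and EIF4A1 at 0.302 CPM per kilobase. For EIF4A1 and EIF4E3, 86.8% and 84.4% of coding bases also lie in exons of other genes, and reads there were not counted. Their values therefore do not stand for the whole genes. The lengths are all exon bases in the annotation, 37761 for EIF3E, and the order depends on them.

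**Figure D5:**
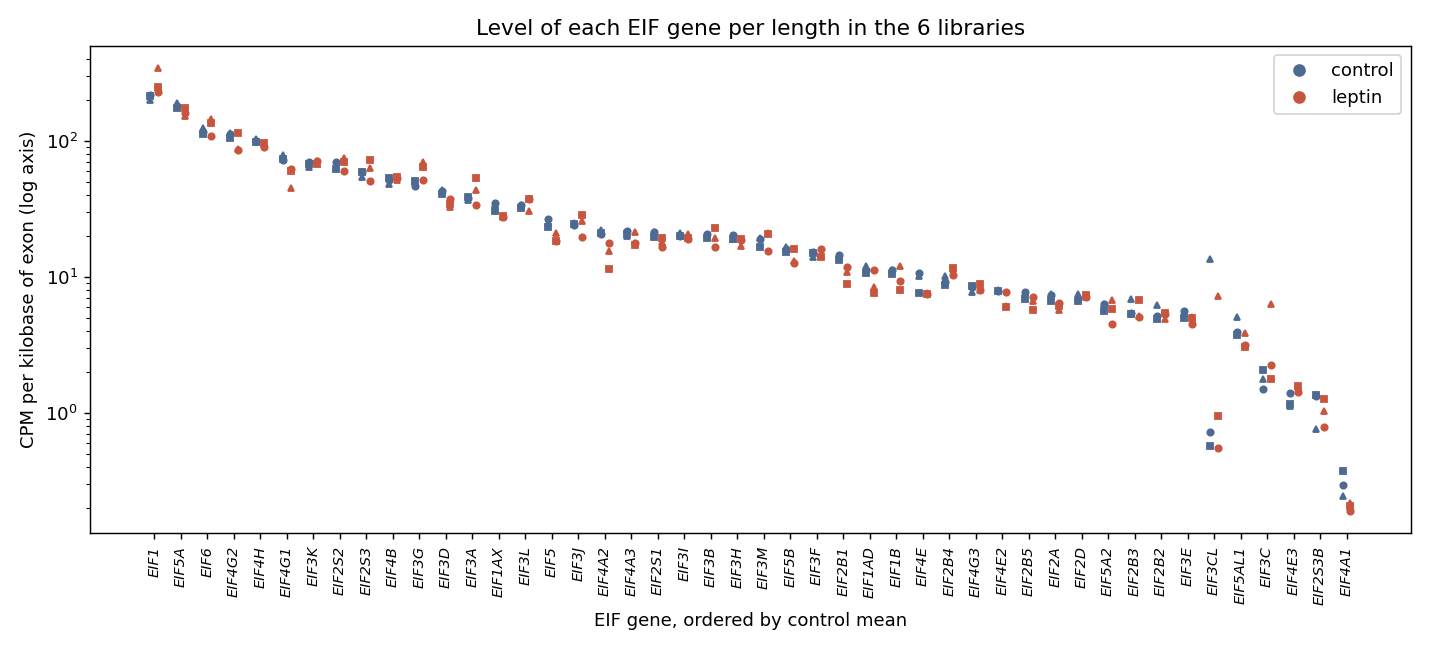
CPM per kilobase of exon (log axis) of the 46 EIF genes with counts, in the 6 libraries, ordered by the control mean; controls in blue, leptin in red, symbols as for the CPM of 8 genes. Levels span from about 212 (EIF1) to 0.302 (EIF4A1) CPM per kilobase in controls, the latter from counts that do not stand for the whole gene.

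Ratios of paralogs within a library do not depend on scaling, and 7 pairs were compared. EIF1 over EIF1B, per length, was 4.30, 4.36 and 4.16 on the log2 scale in controls and 4.62, 4.96 and 4.84 with leptin, a difference of 0.54 with no overlap. EIF4G1 over EIF4G3 was 3.10, 3.11 and 3.36 against 2.95, 2.76 and 2.50, a difference of -0.46, also with no overlap. For EIF4A1 over EIF4A3 the difference was -0.39. Each had an exact two-sided permutation p of 0.1, the smallest that 3 libraries against 3 can give, and 0.233 adjusted over the pairs. For EIF4G1 over EIF4G2 (-0.22), EIF5A over EIF5A2 (-0.05), EIF4E over EIF4E2 (-0.05) and EIF4A1 over EIF4A2 (-0.01) the groups overlapped, with exact permutation p from 0.4 to 0.9 and adjusted p from 0.7 to 0.9. The ratios with EIF4A1 rest on its 16 to 31 counts per library, which do not stand for the whole gene.

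Genes that act on or beside the initiation factors were also counted, and the share that passed was near that of all tested genes. In 6 lists of such genes 59 of 63 genes could be tested, and 6 rose and 1 fell by edgeR's test (11.9%, against the background of 9.81%). Of the integrated stress response and eIF2 regulators, 2 of 14 tested rose and 0 fell. PPP1R15A, which directs a phosphatase to eIF2 alpha, stood at 51.6, 64.4 and 56.0 CPM in controls and 96.3, 217 and 225 CPM with leptin. It rose with a log2 fold change of 1.65 ± 0.29 (adjusted p in edgeR = 0.0142), replicate 1 being nearest the controls. ATF4, the transcription factor of that response, stood at 440, 494 and 459 CPM against 606, 754 and 860 CPM and rose (0.67 ± 0.14, adjusted p in edgeR = 0.0166). PPP1R15B, the constitutive relative of PPP1R15A, had -0.34 ± 0.10 (adjusted p in edgeR = 0.0602) and the kinase gene EIF2AK3 had -0.44 ± 0.18 (0.140), both with all leptin libraries below the controls.

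Of 13 tested eIF4E-binding and cap-complex regulators, 1 rose and 0 fell. MKNK2, a kinase of eIF4E, stood at 342, 388 and 343 CPM in controls and 528, 1073 and 1040 CPM with leptin, and it rose by a log2 fold change of 1.30 ± 0.23 (adjusted p in edgeR = 0.00956). EIF4EBP1, a repressor that holds eIF4E away from eIF4G, stood at 141, 138 and 135 CPM against 145, 206 and 254 CPM, replicate 1 just above the controls (0.55 ± 0.17, adjusted p in edgeR = 0.0651). EIF4EBP2 had the opposite sign (-0.39 ± 0.14, adjusted p in edgeR = 0.0981), as did GIGYF2, a partner of EIF4E2 (-0.21 ± 0.11, adjusted p in edgeR = 0.248).

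Of 15 tested poly(A)-binding and accessory proteins, 1 rose and 1 fell. BZW2, a protein resembling eIF5 that competes with it for eIF2, stood at 14.3, 11.7 and 13.0 CPM against 7.38, 7.62 and 7.24 CPM and fell (log2 fold change -0.81 ± 0.16, adjusted p in edgeR = 0.0127). Its relative BZW1 had -0.30 ± 0.10 (adjusted p in edgeR = 0.0854) and the recycling factor ABCE1 -0.34 ± 0.12 (0.0904), both with all leptin libraries below the controls. CTIF, which serves translation from the nuclear cap-binding complex, stood at 59.0, 64.7 and 59.4 CPM against 79.0, 107 and 102 CPM and rose (0.65 ± 0.13, adjusted p in edgeR = 0.0137).

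Of 13 tested elongation and release factors 2 rose and 0 fell. EEF1A2, which delivers aminoacyl-tRNA, stood at 34.7, 38.0 and 38.1 CPM in controls and 80.3, 131 and 128 CPM with leptin (log2 fold change 1.61 ± 0.17, adjusted p in edgeR = 0.00118). EEF2, the translocation factor, stood at 2677, 2882 and 2665 CPM against 3515, 5340 and 4212 CPM (0.67 ± 0.16, adjusted p in edgeR = 0.0264). EEFSEC and DPH1 had 0.53 ± 0.18 and 0.37 ± 0.14 (adjusted p in edgeR = 0.0896 and 0.125). The hypusine enzymes that modify eIF5A had 0.54 ± 0.19 for DOHH and 0.77 ± 0.44 for DHPS (adjusted p in edgeR = 0.0987 and 0.286), and 84.95% of the coding bases of DHPS overlap other genes. The mitochondrial factors MTIF2 and MTIF3 had 0.32 ± 0.14 and -0.10 ± 0.14 (adjusted p in edgeR = 0.156 and 0.683).

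Only EEF1A2 of these 7 passed whichever library was left out (highest adjusted p in edgeR = 0.0240). MKNK2 and BZW2 did not pass without control replicate 1 (adjusted p in edgeR = 0.0707 and 0.0986), control replicate 3 (0.0662 and 0.0767) or leptin replicate 3 (0.0538 and 0.0564). PPP1R15A did not pass without control replicate 1, control replicate 3, leptin replicate 2 or leptin replicate 3 (0.0692, 0.0662, 0.0670 and 0.0537). ATF4 and CTIF did not pass without control replicate 1 (0.119 and 0.104), control replicate 2 (0.0713 and 0.0589), control replicate 3 (0.108 and 0.0942) or leptin replicate 3 (0.0670 and 0.0641). EEF2 passed only without leptin replicate 1, its adjusted p being between 0.0537 and 0.147 without each of the others, and it was 0.105 with the GC trend removed.

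The promoters of EIF4G1 and EIF4E, 2 of the eIF4 members with low leptin values, are shown for the E-box CACGTG. MYC and related factors can bind this sequence, and the 2 genes were picked after their values were seen. RefSeq promoter windows, 300 bases on GRCh38.p14, were at hand for 41 members (57 windows among 35116 in all). The E-box, which reads the same on both strands, was in 10 of the 57 windows, from EIF1B, EIF2B3, EIF3F, EIF3K, EIF4A3, EIF4B, EIF4E, EIF4G1, EIF4H and EIF5A2, and in 7.26% of all windows. Of the other eIF4 members wholly below the controls, EIF4H is in this list, and EIF4A1, EIF4A2 and EIF4E2 are not. CCGGAAGT, an ETS motif, was in 10 windows of 9 members and in 4.14% of all, and TGATGNAA, the core of an amino acid response element, was in 1 (EIF4E3) and in 3.62% of all, both searched on both strands. Windows of 1 gene can overlap, so their counts are not independent. The stretches below end before the outermost exon start in the count tables, with the E-boxes in capitals, at chr3:184314437-184314492 on the plus strand (56 bases, 1 box) and chr4:98929175-98929383 on the minus strand (209 bases, 2 boxes). A match is a description of these letters only.
EIF4G1: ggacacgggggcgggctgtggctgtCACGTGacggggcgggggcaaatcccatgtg
EIF4E: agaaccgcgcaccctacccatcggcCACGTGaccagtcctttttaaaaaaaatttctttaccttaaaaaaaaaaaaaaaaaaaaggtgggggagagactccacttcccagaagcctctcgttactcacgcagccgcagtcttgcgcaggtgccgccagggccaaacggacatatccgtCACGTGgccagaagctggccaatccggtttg
EIF3K and EIF4B, whose windows hold the same E-box, had log2 fold changes of 0.06 each, and EIF3F had 0.01. The remaining members with the E-box had negative values: EIF2B3 -0.07, EIF4H -0.09, EIF5A2 -0.10, EIF4A3 -0.16 and EIF1B -0.17. A link of the E-box with the changes was not tested.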

How the data were processed

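RNA was sequenced from 6 OVCAR8 libraries. The deposited values are raw counts per gene. Per the file headers, featureCounts 2.0.1 was run by the authors on paired reads and GENCODE 44 exons, without options for strand, multi-mapping or several genes. The aligner was HISAT2 2.0.5 on hg38, per the submitters' processing notes, which give featureCounts as 1.5.0-p3 and also list DESeq2. Gene types came from GENCODE 29 for 58207 IDs and by RefSeq symbol for 393. None of the 37 mitochondrial genes had a count.

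Counts were tested over all genes in R 4.3.3 with edgeR 4.0.16, using filterByExpr (minimum count 10, minimum total 15), TMM scaling, quasi-likelihood fits with no block, and Benjamini-Hochberg adjustment at 0.05. A standard error is the log2 fold change over the root of F. The common biological coefficient of variation was 0.150. Alternatives were DESeq2 1.42.0, limma-voom (limma 3.58.1), other scalings and filters, the GC trend of each library removed (lowess, span 0.3), a block, and leaving out each library. Same-group libraries differed beyond sampling noise (chi-square per gene 5.24 to 45.4). Figures used Python 3.11.15 and matplotlib 3.10.9.

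Members and lists were chosen with earlier results of these data known. The naming rule takes, in each complex, the member with the largest change and that with the highest level per length, then the paralog pairs, then the 4 genes of smallest adjusted p in each list. Every member gets its status, and further members were given per library after their values were seen.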

Additional observations from a re-analysis of the deposited data

How the results depend on the processing

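The labels do not say that the replicate numbers pair the libraries, and deviations of same-numbered libraries correlated at -0.049, 0.015 and -0.109. Deviations from the mean of only 3 libraries per group cannot decide whether a pairing exists. With a replicate block 1 EIF gene passed as lower (EIF4A2, edgeR adjusted p = 0.0434, with 8.31% of all genes passing), and with the block and GC removal also 1 (EIF4G1, 0.0399, with 6.01% of all genes passing). The count of lower members, 0 as reported, was 4 with DESeq2, 4 with library totals only, 4 with no filter, 1 with a mean of at least 1 CPM and 1 with GC removal, and the count of higher members was 0 under each of these. With single libraries left out, lower counts ranged from 0 to 8 and higher counts from 0 to 4, and both from 0 to 7 with GC removal, which was combined with leaving out libraries after seeing the data. RLE scaling, limma-voom and an adjusted p under 0.01 gave 0 and 0.

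Signs changed for several genes and ratios, the following among them. EIF3CL, at -0.74 as reported, ranged from -2.73 to 2.16 with single libraries left out. EIF4G3 was -0.037 with library totals. With GC removal EIF5A2 was 0.059, EIF6 -0.020 and MTIF3 0.024, and with the block as well they were 0.041, -0.027 and 0.014, with DOHH, 0.54 as reported, at -0.0026. With single libraries left out the log2 fold changes ranged from -0.012 to 0.13 for EIF2S2, -0.044 to 0.035 for EIF4G3, -0.25 to 0.039 for EIF5A2 and -0.20 to 0.0031 for MTIF3. The paralog differences ranged from -0.20 to 0.18 for EIF4A1 over EIF4A2, -0.21 to 0.12 for EIF5A over EIF5A2 and -0.19 to 0.071 for EIF4E over EIF4E2. The cause of these changes was not tested. Reads that fit 1 place only limit EIF3C and EIF3CL, and overlapping exons limit EIF4A1.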

Other observations

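The annotation also holds 81 EIF symbols that are not protein-coding, mostly processed pseudogenes, and they were outside every comparison above. Of these, 37 had 0 counts in all libraries and 12 could be tested. By edgeR's test 0 passed in either direction (2 at an unadjusted p under 0.05), and DESeq2 and limma-voom also called 0. EIF4EP2, a pseudogene copy of EIF4E, stood at 6.48, 4.66 and 5.76 CPM in controls and 4.09, 3.88 and 3.68 CPM with leptin (log2 fold change -0.54 ± 0.22, adjusted p in edgeR = 0.132). EIF5AP4, a copy of EIF5A, stood at 10.9, 10.7 and 9.48 CPM against 7.49, 9.15 and 4.99 CPM (log2 fold change -0.53 ± 0.22, adjusted p in edgeR = 0.141). Both, of the 12 tested, were lower in every leptin library than in any control, where 16.2% of all tested genes were. EIF4E and EIF5A were also wholly below. Whether reads of the parent genes entered the counts of these copies was not tested. EIF4BP6, a copy of EIF4B, lay wholly above the controls, with 2.21, 1.80 and 1.62 CPM against 2.54, 2.54 and 2.43 CPM. EIF4A1P10, a copy of EIF4A1, stood at 5.85, 4.97 and 7.92 CPM against 5.25, 3.74 and 4.45 CPM. The counts of EIF4A1 were fewer (1.26 to 1.93 CPM in controls), but they do not stand for the whole gene. Of its coding bases 86.8% also lie in exons of other genes, so its level cannot be set against that of the copy.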
